A study of Parascaris univalens with 7 samples.

Results

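The genes described here are the 2849 retained genes on scaffolds whose name ends in X, out of 15027 genes in the deposited table of the horse roundworm Parascaris univalens. Parascaris is a nematode that passes its whole genome through the germline and discards part of it from the cells that form the body, a process called programmed DNA elimination. A gene was taken as one of these when its scaffold name ended in X and the table did not mark it as eliminated. No expression value entered the choice. There are 84 such scaffolds among 884, called X-named scaffolds below, and their retained genes were 20.3% of all 14042 retained genes. The comparison set was the 11193 retained genes on scaffolds without the final X.

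RNA was measured with 1 library each for testis and ovary, and for embryo, intestine and the carcass that is left after dissection, from a North American wildtype strain collected from horse intestine. The labels call testis the male germline and ovary the female germline, and call embryo, intestine and carcass male somatic. A pair of further libraries of RNA 5′ ends, made from mixed material by PCR on the spliced leader (a short RNA joined to the start of many nematode mRNAs) and with the TeloPrime method, enter only as marks on transcripts. Levels are the authors' RPKM values, which scale read numbers by transcript length and by the reads of the library, given to 1 decimal.

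In nematodes such as Caenorhabditis elegans, males carry a single X chromosome and hermaphrodites a pair, the X is kept largely silent while sperm form, and genes for sperm are scarce on it, whereas genes active in the oocyte and in somatic tissues are found there. What the final X means in the names of the Parascaris scaffolds is not given in the sources used here, so the scaffolds are called by their names and not by a chromosome. The prefixes PgR and PgB are not explained either. Of the X-named scaffolds, 76 begin with PgR and carry 2453 of the genes, and 8 begin with PgB and carry 396.

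The tissue labels were checked by summed values of marker families over all retained genes. Major sperm protein and related genes (41) summed to 26554 RPKM in testis and to at most 626.2 in any other tissue. Chondroitin proteoglycan and ovarian genes (21) summed to 37296.9 RPKM in ovary, digestive enzyme and vitellogenin genes (35) to 14377.2 in intestine, and cuticle collagen and muscle genes (159) to 59339.8 in carcass, in each case the highest of the 5 tissues. Listed at 0 in their own tissue were 58 of the 159 carcass markers and 4 of the 35 intestine markers. The sums for these tissues thus rest on part of each list. No embryo markers were used. The spacing of low values gave between 11900000 reads in embryo and 31750000 in ovary. That spacing says little for testis, where 99.7% of the low values fell on whole reads and 93.3% would by chance, and for ovary (99.6% and 94.1%), so depths and counting intervals there are estimates. By these depths, at the median transcript length of 1325 nt 3 reads correspond to between 0.0713 RPKM in ovary and 0.19 in embryo. The 20 highest genes held between 24.0% of summed values in ovary and 52.9% in embryo, where genes with rDNA-related annotations alone held 35.0%. Since there is 1 library per tissue, no difference below has a replicate check and no p-value was computed. In whole tissues, fewer cells that make an RNA and less RNA per cell cannot be told apart.

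Genes on X-named scaffolds had lower levels in testis than genes elsewhere. Their median level in testis was 2.8 RPKM, against 4.7 RPKM for retained genes elsewhere, which is 59.6% of it. In ovary the X-named genes had the higher median, 9.5 RPKM against 7.2 RPKM elsewhere. The medians were 7.9 and 6.8 RPKM in embryo, 3.4 and 3.0 RPKM in intestine, and 2.7 and 2.4 RPKM in carcass, for X-named and other genes in each case. So with 1 transcript per gene, testis was the tissue in which the X-named median lay below that of the other genes. With values summed over a gene's transcripts the log2 medians of X-named minus other genes were −0.84 in testis, 0.034 in embryo, −0.023 in intestine and −0.026 in carcass, so that the small gaps in intestine and carcass reversed. A gene was counted as detected at 1 RPKM. In testis, 68.0% of X-named genes reached that level, against 74.1% of the others, and in ovary 75.3% did, against 69.8% of the others.

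The gap in testis was widest among highly expressed genes. At least 100 RPKM in testis was reached by 33 X-named genes, 1.16% of them, against 559 other genes, 4.99%. In ovary 108 X-named genes, 3.79%, reached it, against 585 others, 5.23%. The shares were 1.30% and 2.81% in embryo, 2.67% and 3.52% in intestine, and 2.81% and 3.98% in carcass. So at this level the X-named share was the lower one in every tissue, and the step was largest in testis. As a share of all summed RPKM of retained genes, the X-named genes held 6.31% in testis, 13.9% in ovary and 7.02% in the embryo library, with intestine at 11.5% and carcass at 14.5%, against their 20.3% of genes. The embryo share was therefore nearly as low as the testis share. The 20 highest genes held 52.9% of summed values in embryo, 37.8% in intestine and 36.5% in carcass, so a few genes weigh on each of these sums. The X-named sum in carcass includes an actin-2 gene (PgR195X_g002) with 21619.5 RPKM, whose locus may be counted more than once. In embryo a smaller share of X-named than of other genes also reached 100 RPKM. The embryo median did not follow the embryo share.

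The lower testis level was also present among genes used everywhere. Of the X-named genes 1413 had at least 1 RPKM in all 5 tissues, and 5205 of the others did. Among these, the median in testis was 7.0 RPKM for X-named and 9.7 RPKM for other genes, a ratio of 72.2% (log2 −0.47), while in ovary, embryo, intestine and carcass the X-named median was 22.5, 17.0, 11.1 and 6.3 RPKM, against 21.0, 16.0, 9.8 and 5.5 RPKM for the others. With at least 5 RPKM in all 5 tissues, which 586 X-named and 2106 other genes reached, the testis medians were 13.4 RPKM on X-named scaffolds and 18.95 RPKM elsewhere (70.7%), and in the other 4 tissues the X-named median was between 93.2% and 97.5% of the other one. These genes are a part of each set and passed by their level in every tissue.

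**Figure D1:**
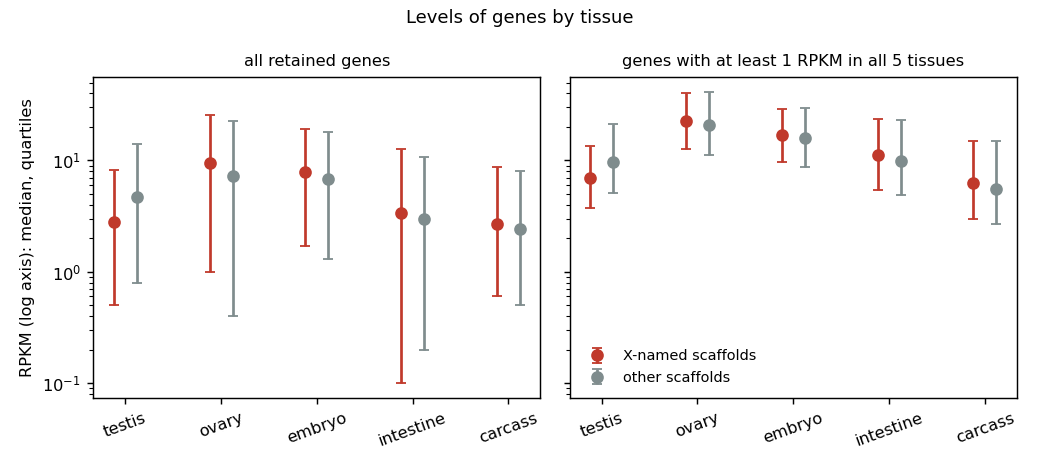
Median RPKM (points) with lower and upper quartiles (bars), on a log axis, in each of the 5 tissues for retained genes on X-named scaffolds and on other scaffolds, with 1 transcript per gene. The X-named median lies below the other one in testis (2.8 against 4.7 RPKM for all genes, 7.0 against 9.7 RPKM for genes with at least 1 RPKM everywhere) and above it in the other 4 tissues.

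Genes specific to testis were scarce on X-named scaffolds. The call used a step of at least 2 on log2(RPKM + 1), which is 4-fold, between a pair of tissues and a minimum of 5 RPKM on the higher side, and an enriched gene passed it against all 4 remaining tissues. Of the X-named genes, 37 (1.30%) were testis-enriched, against 977 (8.73%) of the other retained genes, and 9.48% of all genes in the table. Thus 3.65% of the 1014 retained testis-enriched genes (exact 95% binomial interval 2.58% to 4.99%) lay on X-named scaffolds, which hold 20.3% of retained genes. That interval treats genes as independent, although some of the 37 are neighbours or overlap. The other 4 tissues showed no such gap. Ovary-enriched were 56 X-named genes (1.97%) and 198 others (1.77%), with 1.8% of all genes. Embryo-enriched were 46 (1.61%) and 229 (2.05%), with 1.9% of all genes. Intestine-enriched were 59 (2.07%) and 233 (2.08%), with 1.95% of all genes, and carcass-enriched 104 (3.65%) and 444 (3.97%), with 3.67% of all genes. X-named scaffolds held 22.0% of the ovary-enriched, 16.7% of the embryo-enriched, 20.2% of the intestine-enriched and 19.0% of the carcass-enriched retained genes.

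**Figure D2:**
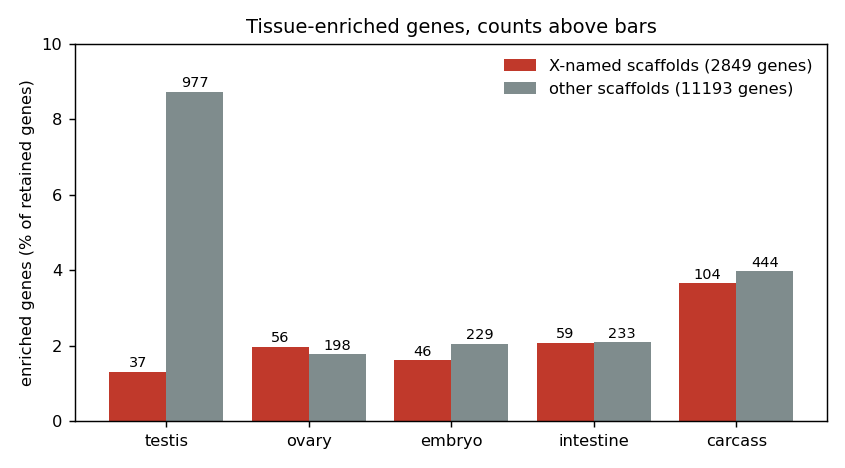
Percentage of retained genes enriched in each tissue (bars from 0, number of genes above each bar), for genes on X-named scaffolds (left bar) and on other scaffolds (right bar). In testis the bars stand at 1.30% and 8.73%, and in the other 4 tissues the bars of a pair are close, as in intestine with 2.07% and 2.08%.

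The tissue in which a gene was highest gave the same order without a fold threshold. Of the 2158 X-named genes with at least 5 RPKM in some tissue, 99 (4.59%) had their highest value in testis, against 1645 (18.5%) of 8910 other genes. Ovary was the highest tissue for 1081 X-named genes (50.1%) and 3531 others (39.6%). Embryo was highest for 19.6% of X-named and 18.8% of other genes, intestine for 16.0% and 12.9%, and carcass for 9.64% and 10.1%.

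Between testis and ovary directly, 70 X-named genes (2.46%) were higher in testis, against 1229 others (11.0%) and 11.6% of all genes. Higher in ovary were 651 X-named genes (22.9%), against 1670 others (14.9%) and 15.9% of all genes. The median difference, testis minus ovary on log2(RPKM + 1), was −1.08 for X-named and −0.50 for other genes. Whatever its size, the testis value lay below the ovary value for 2112 X-named genes (74.1%) and 6771 others (60.5%). Scaling moves this balance for both sets. Under median-of-ratios scaling, which sets the testis values higher against ovary by 1.15 on the log2 scale, the medians were −0.21 for X-named and 0.07 for other genes, with 109 X-named genes above ovary in testis and 201 below. Elsewhere 1557 genes were then above ovary and 607 below, so calls of higher testis values were the more frequent kind elsewhere and the less frequent kind on X-named scaffolds.

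Calls of higher testis values were also scarce among X-named genes in the comparisons with embryo, intestine and carcass. Above embryo in testis were 72 X-named genes (2.53%) and 1227 others (11.0%), with 11.6% of all genes. Above intestine were 129 (4.53%) and 1629 (14.6%), with 15.8% of all genes, and above carcass 142 (4.98%) and 1989 (17.8%), with 18.4% of all genes. With testis as the higher tissue, the X-named share in the 4 comparisons was thus between 0.224 and 0.311 times the other share.

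With testis as the lower tissue that ratio was between 1.01, for carcass, and 1.53, for ovary. Embryo exceeded testis for 479 X-named genes (16.8%) and 1441 others (12.9%), with 13.1% of all genes. Intestine exceeded testis for 304 (10.7%) and 912 (8.15%), with 8.11% of all genes, and carcass exceeded testis for 276 (9.69%) and 1075 (9.60%), with 9.04% of all genes. In the 12 comparisons without testis the ratio was between 0.726, for embryo above ovary, and 1.07. Ovary exceeded embryo for 134 X-named genes and 493 others (4.45% of all genes), intestine for 580 and 2157 (20% of all genes), and carcass for 804 and 2955 (26.9% of all genes). Embryo exceeded ovary for 120 X-named genes and 649 others (5.35% of all genes), intestine for 451 and 1751 (16.2%), and carcass for 578 and 2470 (22.1%). Intestine exceeded ovary for 156 and 746 genes (6.16% of all genes), embryo for 149 and 676 (5.6%) and carcass for 140 and 603 (4.96%). Carcass exceeded ovary for 202 and 1016 genes (8.2% of all genes), embryo for 163 and 774 (6.32%) and intestine for 212 and 862 (7.19%).

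Genes present in testis and listed at 0 in ovary were also scarce. Listed at 0 in ovary with at least 5 RPKM in testis were 20 X-named genes (0.702%) and 477 others (4.26%). Listed at 0 in testis with at least 5 RPKM in ovary were 31 X-named genes (1.09%) and 133 others (1.19%). Among genes with at least 20 RPKM in ovary, 934 X-named and 3161 others, the median testis value was 24.7% of the ovary value on X-named scaffolds and 31.9% elsewhere.

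The 70 X-named genes higher in testis than in ovary were of different kinds. For 52 of them testis was the highest of the 5 tissues, and for the other 18 (25.7%) it was intestine. Among the 1229 other genes, testis was the highest tissue for 1109 (90.2%) and intestine for 83 (6.75%). An example is a proton myo-inositol cotransporter (PgR035X_g046), a membrane carrier for the sugar alcohol inositol, with 45.0 RPKM in testis and 0.3 in ovary, but 1632.8 RPKM in intestine, 305.7 in carcass and 160.3 in embryo. The 35 retained marker genes of intestine summed to 982.6 RPKM in testis, against 583.2 in ovary, a much smaller step than that of the cotransporter. In embryo, intestine and carcass they summed to 1730.0, 14377.2 and 2434.5 RPKM. Of these 35, 4 were listed at 0 in intestine. The vitellogenin outside X-named scaffolds was testis-enriched, with 54.4 RPKM in testis and 0.7 in intestine. Why intestine genes had values in testis was not tested.

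The testis-enriched genes on X-named scaffolds were few, and their median testis level was like that of testis-enriched genes elsewhere. Both sets were called by a high testis value, so their levels do not describe the X-named genes as a whole. Their testis values ran from 7.3 to 940.0 RPKM with a median of 62.1, against a median of 62.3 and a highest value of 15477.3 RPKM among the 977 testis-enriched genes elsewhere. At least 100 RPKM was reached by 11 of the 37 (29.7%) and by 317 of the 977 (32.4%). None of the 37 reached 1000 RPKM, and 32 of the others did. The X-named ones were shorter, with a median transcript length of 1104 nt and 4 exons, against 1454 nt and 6 exons elsewhere. As hypothetical proteins were annotated 18 of the 37 (48.6%) and 461 of the others (47.2%).

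Among those with an informative annotation, the highest was a subtilase-type proteinase (PgR233X_g002, PgR233X at positions 23984 to 31331 on the minus strand), of a family of serine proteases. It had 781.4 RPKM in testis (exact 95% counting interval 773 to 789), against 15.3 in ovary and 9.5 in embryo, with intestine at 17.6 and carcass at 13.8. A hypothetical gene on the opposite strand, PgR233X_g003 at positions 24139 to 39659, overlaps it and had 940.0 RPKM in testis. The sources used here do not say that strand was kept in the libraries, so the reads of this pair of genes cannot be told apart. Neighbouring single-exon genes annotated as cell wall protein TIR4, a yeast name carried over by similarity, followed on PgR001X. Of them PgR001X_g293 had 286.6 RPKM in testis and PgR001X_g295 184.1 RPKM. The table gives both without a strand, and between 5.1 and 21.4 RPKM in embryo, intestine and carcass. The levels over the 5 tissues were alike in shape, with ovary at 0.9 and 0.2 RPKM.

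Other testis-enriched genes were annotated as membrane transporters and enzymes. The equilibrative nucleoside transporter 1 (PgR050X_g059), which carries nucleosides across membranes, had 126.0 RPKM in testis, 1.7 in ovary and 27.7 in embryo. A gene annotated as MOXD1-like protein 2 (PgR001X_g283), of the copper-dependent monooxygenases, had 96.1 RPKM in testis, was listed at 0 in ovary and had at most 0.8 elsewhere. A gene named only as a transporter (PgR032X_g009) had 49.5 RPKM in testis and at most 0.6 elsewhere. These genes were close to silent in ovary and the somatic libraries, except for the nucleoside transporter. Recombination repair protein 1 (PgR209X_g002), a nuclease of DNA repair in Drosophila, had 62.1 RPKM in testis and at most 1.6 in the other tissues.

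Protein kinases are prominent among the sperm genes of C. elegans. The serine/threonine-protein kinase PgR232X_g004 had 86.7 RPKM in testis, was listed at 0 in ovary and had at most 2.2 in other tissues. It lies within the span of another gene on the opposite strand. Tau-tubulin kinase 1 (PgR022X_g039), of a kinase family that is enlarged in C. elegans, had 53.1 RPKM in testis and 0.1 in ovary. With a further serine/threonine-protein kinase on PgR022X, these were the 3 testis-enriched kinases of the 64 on X-named scaffolds, beside 81 of 251 elsewhere, where the shares of all genes were 1.30% and 8.73%. The kinase list as a whole was not short on X-named scaffolds, which held 20.3% of its 315 retained members.

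The remaining testis-enriched genes were a mixed set. The Pol polyprotein of an R2 retrotransposable element (PgR022X_g048), a mobile element that inserts into ribosomal DNA, had 113.3 RPKM in testis (interval 110 to 117) and at most 2.1 elsewhere. An aristaless-related homeobox gene (PgR001X_g262), a transcription factor of neural and appendage development in flies, had 40.6 RPKM in testis and at most 0.2 in other tissues, and lies inside a gene of the same annotation. Visual system homeobox 1 (PgB02X_g122) had 14.2 RPKM in testis (interval 12.6 to 16.0) and 0.8 in carcass and was listed at 0 in the other 3. Homeobox genes had 3 testis-enriched members of 20 on X-named scaffolds, the nested aristaless pair among them, and 1 of 47 elsewhere, beside 1.30% and 8.73% of all genes. A cuticle collagen 6 (PgB02X_g144), a potassium channel (PgR017X_g098) and a fibrous sheath CABYR-binding protein (PgR017X_g079), whose mammalian namesake belongs to the sperm tail, had 22.1, 17.7 and 7.3 RPKM in testis. In no other tissue did these 3 exceed 2.1 RPKM.

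The genes for sperm itself were nearly missing. The major sperm proteins form the motile cytoskeleton of the amoeboid sperm of nematodes and also act as a signal to oocytes. Of 71 retained genes whose annotation names a sperm protein, a major sperm protein or its partners, 3 (4.23%) lay on X-named scaffolds, with 1 testis-enriched member there and 51 elsewhere. That member, msp-domain protein 2 (PgR001X_g254), had 26.1 RPKM in testis (interval 24.7 to 27.5), was listed at 0 in ovary and had 0.6 in intestine and 0.3 in both embryo and carcass. MFP2 (PgR022X_g029), named after a component of the sperm motility machinery of Ascaris, had 3.3 RPKM in testis (interval 2.44 to 4.31) and was listed at 0 in the other 4. The third, an msp domain-containing gene (PgR108X_g019), had 0.5 RPKM in testis and 3.9 in ovary. The median of the list in testis was 3.3 RPKM on X-named scaffolds and 101.55 RPKM for the 68 members elsewhere.

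Protein phosphatases, which in C. elegans include many sperm genes, were less scarce. X-named scaffolds held 26 of 175 retained members (14.9%), beside 20.3% of all retained genes. None of the 26 was testis-enriched, against 61 of 149 elsewhere. The median of phosphatases in testis was 2.9 RPKM on X-named scaffolds and 17.1 RPKM elsewhere, while their median in ovary was 9.2 and 4.8 RPKM. The catalytic subunit of protein phosphatase 1 (PgR038X_g016) is an example, with 17.0 RPKM in testis, against 202.6 in ovary. Of all genes, 1.30% were testis-enriched on X-named scaffolds and 8.73% elsewhere, so none of 26 lies near the share of all X-named genes. Ubiquitin ligases were close to those shares, with none of 17 on X-named scaffolds and 10 of 154 elsewhere, and X-named scaffolds held 9.94% of the list.

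The named genes higher in ovary were of many kinds. The largest difference among annotated genes was that of a c-type lectin (PgR022X_g125), a sugar-binding protein, with 0.4 RPKM in testis, against 1531.5 RPKM in ovary (log2 difference −10.10), and at most 2.7 RPKM in the other tissues. Its position is shared with PgR022X_g126, a c-type lectin gene of the other strand, with 332.6 RPKM in ovary, and the reads may be those of 1 locus. Complement factor H (PgR005X_g025), whose vertebrate namesake restrains complement, had 1.7 RPKM in testis, against 315.0 in ovary, and 234.1 in embryo. Chondroitin proteoglycan 2, a component of the nematode eggshell, occurred in more than 1 gene. PgR001X_g029 had 15.5 RPKM in testis, against 461.1 in ovary, and PgR005X_g168 had 0.6 RPKM in testis, against 119.4 in ovary. A chitin-binding peritrophin-a gene (PgR051X_g070), of a domain found in proteins that bind chitin, was listed at 0 in testis, against 75.7 RPKM in ovary, and stayed at or below 0.6 elsewhere.

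Several of the ovary genes were also present in embryo. The unc-93 regulator of potassium channels (PgR017X_g089) had 0.3 RPKM in testis, against 197.6 in ovary, and 52.2 in embryo. Eyes absent 4 (PgR056X_g006), a transcriptional cofactor with phosphatase activity, was listed at 0 in testis, against 120.6 RPKM in ovary, with 43.7 in embryo. A cyclic nucleotide-gated cation channel (PgR022X_g107) was listed at 0 in testis, against 86.6 RPKM in ovary, with 38.8 in embryo. All of these stood at or below 3.5 RPKM in intestine and carcass. The low-density lipoprotein receptor-related protein 2 (PgR083X_g033), an endocytic receptor, had 0.8 RPKM in testis, against 129.4 in ovary, with 40.0 in embryo, and the nuclear cap-binding subunit 1-B (PgR126X_g001), which binds mRNA caps, had 0.1, against 70.2, with 40.9 RPKM in embryo.

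Others were close to confined to ovary among the 5 libraries. Cathepsin f (PgR035X_g100), a lysosomal protease, had 0.4 RPKM in testis, against 96.2 in ovary, and at most 2.6 elsewhere. Tubulin alpha-3 (PgB02X_g211) had 0.5 RPKM in testis, against 85.8 in ovary, and at most 0.6 elsewhere. RNA-binding protein 39 (PgB02X_g040), a splicing factor, had 713.1 RPKM in ovary, against 16.3 in testis and at most 3.5 in the rest. A cytosolic sulfotransferase (PgR072X_g021) had 242.0 RPKM in ovary, against 11.2 in testis, 11.8 in embryo and at most 1.1 in the somatic tissues. Of the 651 genes higher in ovary than in testis, ovary was the highest tissue for 515 (79.1%), embryo for 80, intestine for 28 and carcass for 28. Among the 1670 other genes the ovary share was 75.7%.

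In embryo the enriched X-named genes were of moderate level. The highest annotated one was the FACT complex subunit SSRP1 (PgR009X_g080), a chromatin factor that helps polymerases pass nucleosomes, with 123.1 RPKM in embryo, against 7.4 in testis, 24.3 in ovary and at most 0.7 in intestine and carcass. A glutathione peroxidase (PgR108X_g021), an antioxidant enzyme, had 76.5 RPKM in embryo (interval 71.3 to 82.0) and was listed at 0 in testis, ovary and intestine. A serotonin receptor (5-hydroxytryptamine receptor 7, PgR083X_g040), phosphoserine aminotransferase (PgR005X_g022), which makes serine, and transcription factor AP-2-delta (PgR051X_g020) had 33.4, 32.6 and 24.1 RPKM in embryo. In no other tissue did these 3 exceed 5.1 RPKM.

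The enriched genes of intestine included some at high levels. After the inositol cotransporter, a cytosolic branched-chain-amino-acid aminotransferase (PgR103X_g019), an enzyme of leucine, isoleucine and valine metabolism, had 996.3 RPKM in intestine, against 30.2 in testis, 0.7 in ovary, 97.2 in embryo and 100.2 in carcass. Vitellogenin-6 (PgR126X_g018), a yolk precursor that the nematode intestine makes, had 961.1 RPKM in intestine, against 2.4 in testis and 1.6 in ovary, although the labels call this intestine male. All 3 vitellogenin genes of these scaffolds lie in the same span of PgR126X, 2 of them inside the first. A sucrase (PgB02X_g203), a digestive enzyme, had 616.3 RPKM in intestine, against 31.9 in testis and 0.5 in ovary. A granulin (PgR005X_g026) had 573.9 RPKM in intestine, against 11.5 in testis and 0.2 in ovary. Each of these genes had its next highest value in carcass, and each was listed higher in testis than in ovary.

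The highest values of annotated X-named genes were those of muscle genes in carcass. Actin-2 (PgR195X_g002), the contractile filament protein, had 21619.5 RPKM in the carcass library, where testis had 328.3, ovary 255.8, embryo 161.4 and intestine 389.4. Further genes annotated as actin-2 lie within its span on the opposite strand, one of them (PgR195X_g004) with 6630.3 RPKM in carcass, and reads of 1 locus may be counted at more than 1 of them. Myophilin (PgR056X_g018), a calponin-like muscle protein, had 2641.8 RPKM in carcass, troponin isoform 2 (PgB12X_g027) 2174.4 and Troponin I 2 (PgR103X_g011) 1335.2, both of the calcium switch of muscle. As37 (PgR017X_g112), named after a muscle protein of Ascaris, had 1137.2 RPKM there. Of the 24 muscle genes on X-named scaffolds, which are 21.8% of 110, 10 were carcass-enriched, against 22 of 86 elsewhere. Cuticle collagens and cuticlins went the other way, with 2 carcass-enriched of 34 on X-named scaffolds and 37 of 165 elsewhere. Of all genes 3.65% and 3.97% were carcass-enriched.

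Some gene families were scarce on X-named scaffolds whatever their tissue. None of the 30 histone genes and none of the 19 small RNA and germ granule genes lay there. DNA replication had 2 of 50 members (4.00%), splicing 8 of 83 (9.64%), and mitosis and chromosome segregation 11 of 102 (10.8%). DNA replication licensing factor mcm2 (PgR001X_g298), of the helicase that opens DNA, was one of the few, with 13.3 RPKM in testis, against 38.0 in ovary and 40.6 in embryo. Condensin-2 subunit G2 (PgR014X_g080), which compacts chromosomes, had 17.0 RPKM in testis, 92.6 in ovary and 70.6 in embryo. Both were low in carcass, at 1.2 and 0.8 RPKM.

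Other lists held more of their members there. Nuclear hormone receptors had 18 of 53 members (34.0%) on X-named scaffolds, homeobox factors 20 of 67 (29.9%), the hedgehog, patched, Wnt and Notch list 24 of 82 (29.3%), neuropeptides, receptors and synapse genes 48 of 169 (28.4%) and ion channels 39 of 144 (27.1%). The base is 20.3% of retained genes. These are descriptions of names in the annotation, and neighbouring copies share their origin. The nuclear receptor nhr-23, which in C. elegans acts in moulting, is the annotation of neighbouring genes that differed. PgR051X_g055, of 805 nt, had 20.4 RPKM in testis, against 98.8 in ovary, with embryo at 62.8, intestine at 43.6 and carcass at 22.9. PgR051X_g056, of 2783 nt on the other strand, had 15.2 RPKM in testis and 21.5 in ovary. It was highest in embryo at 80.4, with intestine at 1.6 and carcass at 0.7. Of the 20 homeobox genes 4 were higher in ovary than in testis, against 5 of 47 elsewhere, where all X-named genes had 22.9% and all other retained genes 14.9%. The gene PgR014X_g016 had 1.7 RPKM in testis, against 120.6 in ovary, and homothorax (PgR032X_g076), a cofactor of Hox proteins, had 0.8 RPKM in testis, against 29.7 in ovary and 36.3 in intestine. Synaptotagmin-1 (PgR164X_g004), a calcium sensor of synaptic vesicles, had 0.2 RPKM in testis, against 59.3 in ovary. The remaining lists lay nearer the base, with G protein-coupled receptors at 15 of 62 (24.2%), peptidases at 55 of 230 (23.9%), transporters at 47 of 237 (19.8%), zinc finger proteins at 23 of 123 (18.7%), transposable elements at 8 of 49 (16.3%), chaperones at 12 of 76 (15.8%), lectins at 6 of 39 (15.4%) and acyl-CoA metabolism at 8 of 59 (13.6%). Testis-enriched were 1 of 55 peptidases on X-named scaffolds and 12 of 175 elsewhere, and 2 of 47 transporters and 11 of 190, near the shares of all genes of each set (1.30% and 8.73%).

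**Figure D3:**
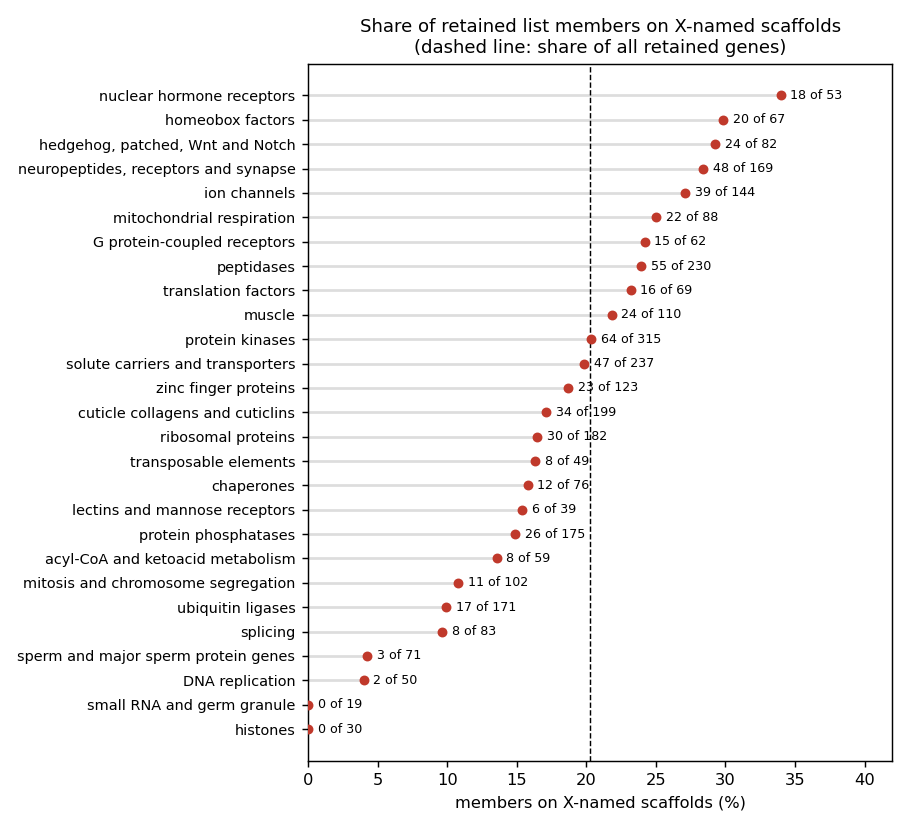
Percentage of the retained members of the 27 gene lists with at least 10 members that lie on X-named scaffolds (points), with the number of members beside each point and the share of all retained genes, 20.3%, as a dashed line. Of these lists nuclear hormone receptors stand highest at 34.0%, the vitellogenins (3 of 4) being left out for their small number, and histones and small RNA genes stand at 0.

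Genes of general use had lower medians in testis than in ovary, more so on X-named scaffolds. Mitochondrial respiration genes had 22 of 88 members (25.0%) there, ribosomal proteins 30 of 182 (16.5%) and translation factors 16 of 69 (23.2%). Median log2 testis minus ovary for these 3 lists was −1.68, −1.52 and −1.36 on X-named scaffolds, against −1.42, −1.05 and −0.94 elsewhere. Over all genes it was −1.08 and −0.50, so in each list the sets lay closer together than over all genes. Ribosomal protein L27a (PgR005X_g079) had 225.0 RPKM in testis, against 714.2 in ovary, and ATP synthase subunit gamma (PgR014X_g038) had 93.1 RPKM in testis, against 362.0 in ovary. Of the 30 ribosomal protein genes 11 were higher in ovary than in testis by the 4-fold rule, against 11 of 152 elsewhere, beside 22.9% and 14.9% of all genes. The ribosomal list also holds a ribosomal protein kinase and mitochondrial ribosomal proteins, such as PgR017X_g064 with 16.2 RPKM in testis, against 121.3 in ovary. Its X-named members had the lower median in every tissue, as in intestine with 14.55 against 56.3 RPKM elsewhere.

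The pattern was spread over the X-named scaffolds. Of those with at least 20 retained genes there were 32, with 2655 genes, and 120 others with 10089. The median testis minus ovary difference lay below 0 on all 32, between −1.62 and −0.42, and below 0 on 105 of the 120 others, between −2.08 and 0.50. Testis-enriched genes made up 1.09% of genes on these X-named scaffolds and 8.96% on the others. On 23 of the 32 there was none, against 10 of the 120. The highest share on an X-named scaffold, 5.04% on PgR022X, lay below the median share of the other scaffolds, 8.70%. After PgR022X came PgR086X with 4.76% (1 of 21 genes) and PgR001X with 3.64%.

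**Figure D4:**
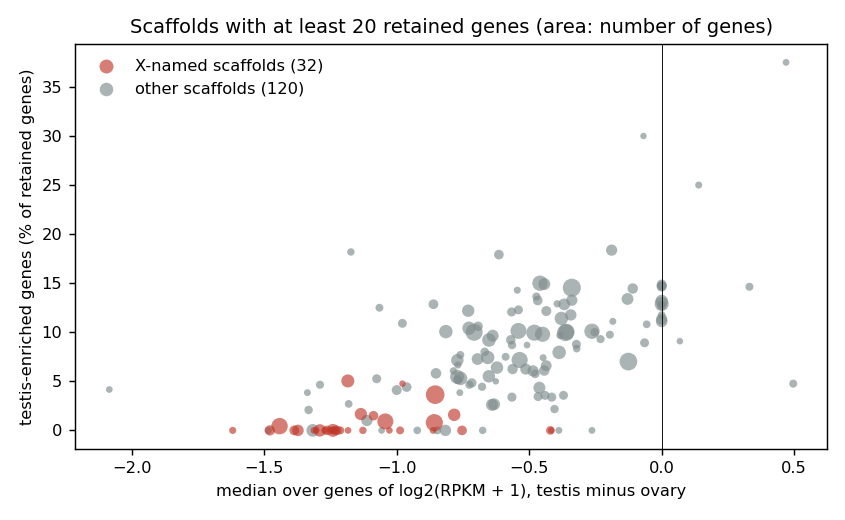
Scaffolds with at least 20 retained genes, by the median over genes of log2(RPKM + 1) in testis minus ovary (horizontal axis) and the percentage of testis-enriched genes (vertical axis), with point area rising with the number of genes. The 32 X-named scaffolds lie between −1.62 and −0.42 and at or below 5.04%, and the 120 others reach 0.50 and 37.5%.

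The 5 X-named scaffolds with the most genes differed among themselves. PgR001X carried 302 genes with 11 testis-enriched ones, PgR009X 253 with 2, PgR005X 230 with 1, PgB02X 219 with 2 and PgR022X 139 with 7. Median testis levels on them were 2.7, 2.5, 3.35, 2.1 and 4.7 RPKM, and median ovary levels 6.7, 7.0, 14.9, 8.1 and 15.0 RPKM. PgR005X had the largest share higher in ovary than in testis, 71 genes (30.9%), and PgR001X the smallest, 56 (18.5%). On the 52 smaller X-named scaffolds, with 194 genes, 8 genes (4.12%) were testis-enriched, against 73 of 1104 (6.61%) on 213 small other scaffolds.

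On some scaffolds the testis-enriched genes were bunched near an end. All 11 on PgR001X lay between the 254th and the 295th of its 302 genes, at positions 4629770 to 5327611, where the last gene ends at 5598733. All 7 on PgR022X lay between the 4th and the 48th of 139 genes, at positions 34600 to 822026. Both on PgR009X were among its last 4 genes, and both on PgR032X among its first 9 of 120. On PgB02X the pair stood further in, at the 122nd and the 144th of 219 genes, and on PgR017X at the 79th and the 98th of 126. On the 10 X-named scaffolds with at least 100 retained genes, 25 of 27 testis-enriched genes lay within 50 genes of an end, as did 1000 of the 1753 genes (57.0%), and the other 753 genes held 2. These stretches were noticed in the values and then described, and the scaffold ends are those of the assembly. The genome build is not given in the sources used here.

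The other genes within the stretches that hold testis-enriched genes differed from scaffold to scaffold. On PgR001X the 31 genes of the stretch that were not testis-enriched had medians of 4.2 RPKM in testis and 4.9 in ovary, with a median log2 difference of −0.19, while the rest of the scaffold had medians of 2.15 RPKM in testis and 7.65 in ovary, with −1.07. On PgR022X the 38 such genes had medians of 3.25 RPKM in testis and 9.0 in ovary, with a median difference of −0.85, and the rest of the scaffold had 4.65 RPKM in testis and 20.35 in ovary, with −1.52. There the smaller difference went with a lower ovary median and not with a higher testis one. Between the pair of testis-enriched genes of PgB02X the 21 other genes had a median difference of −1.12, against −1.02 outside, and on PgR017X the 18 other genes had −1.67, against −0.62 outside. The stretch of PgR001X holds msp-domain protein 2, the aristaless pair, the MOXD1-like gene and the cell wall protein TIR4 genes described above, and that of PgR022X holds the R2 polyprotein, MFP2 and 2 kinases.

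**Figure D5:**
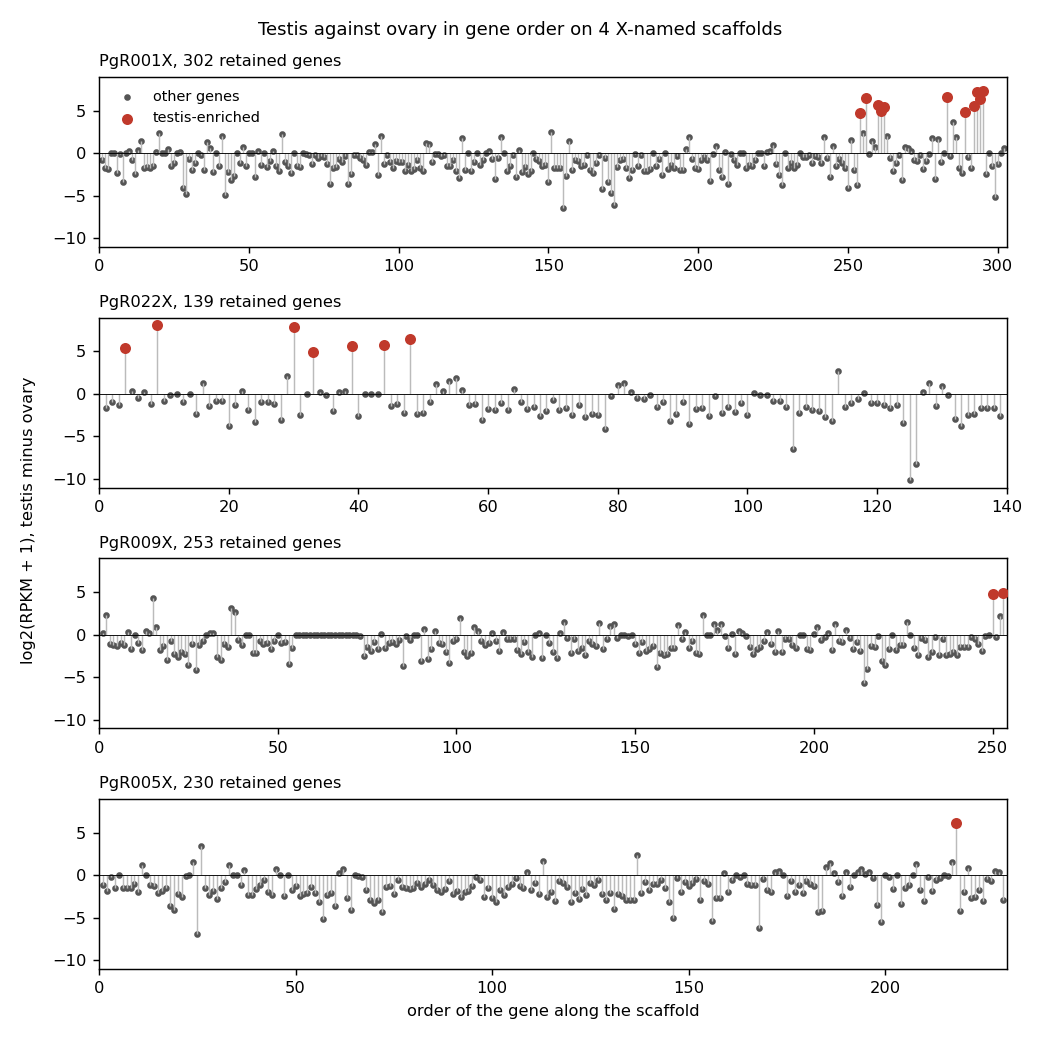
Difference testis minus ovary on log2(RPKM + 1) for each retained gene in its order along 4 X-named scaffolds, with testis-enriched genes as larger red points. The 11 red points of PgR001X lie at orders 254 to 295 of 302 and the 7 of PgR022X at orders 4 to 48 of 139, while most other points lie below 0.

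In windows of 20 neighbouring genes, X-named scaffolds gave 122 windows and the others 448. No testis-enriched gene was found in 108 X-named windows (88.5%) and in 112 others (25.0%). At least 3 were found in 3 X-named windows (2.46%) and in 132 others (29.5%), and the fullest windows held 6 on X-named scaffolds and 9 elsewhere. In no X-named window was the median difference above 0, whereas in 64 other windows (14.3%) it was. The windows have fixed borders, which cut the stretch of PgR001X described above. Taken whole, the 42 genes of that stretch had a median difference of 0.47, with medians of 8.85 RPKM in testis and 2.6 in ovary. The 45 genes of the PgR022X stretch had −0.13. Both stretches were set by their testis-enriched genes.

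A few scaffolds without the final X resembled them. Both a testis-enriched share of at most 1.3% and a median difference of at most −1.08 were found on 18 of the 32 X-named scaffolds and on 4 of the 120 others, which were chosen after their values were seen. PgR023 had 129 genes, none testis-enriched, and a median difference of −1.32. PgR041 had 99 genes with 1 testis-enriched and −1.11, PgB23 32 genes with none and −1.48, and PgR134 26 genes with none and −1.24. Together they held 286 genes with 1 testis-enriched.

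In structure the X-named genes were ordinary. The median transcript length was 1396 nt, against 1325 nt elsewhere, both sets had a median of 6 exons, and the density was 57.6 and 59.0 retained genes per Mb up to the last gene. They differed in the number of transcripts listed per gene, with a mean of 2.15 on X-named scaffolds and 2.80 elsewhere, and 45.1% and 54.9% of genes with more than 1. A 5′ end in the TeloPrime library was marked for 11.8% of X-named and 16.7% of other genes, and a spliced leader for 34.9% and 38.3%. Among the 25% of retained genes with the highest mean level, the transcript means were 2.74 and 3.65 and the TeloPrime shares 29.2% and 39.1%. Both gaps were thus present among highly expressed genes too. The TeloPrime mark was frequent among testis-enriched genes, with 13 of the 37 X-named ones (35.1%) and 482 of the 977 others (49.3%). How far the scarcity of testis-enriched genes enters the TeloPrime gap was not tested. What tissues the mixed samples held is not given in the sources used here.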

How the data were processed

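Testis, ovary, embryo, intestine and carcass had 1 library each, from rRNA-depleted total RNA, per the labels' protocols. The authors deposited a table of 40487 transcripts with position, annotation, marks for eliminated DNA and 5′ libraries, and RPKM values per tissue. The unit was read from the spacing of low values, which follows whole reads over transcript length, and that spacing gave the depths, weakly for testis, ovary and carcass. The submitters' processing notes name TopHat2 and Cufflinks without version or role. Not given in the sources used here are the genome build, the handling of reads that match several loci, and strandedness. Annotations are names carried over by similarity.

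A gene was represented by its transcript with the highest mean RPKM, and 3 genes had transcripts with different eliminated marks. Differences were taken on log2(RPKM + 1), which understates the change of low genes. With 1 library per tissue no test was made. Exact Poisson 95% intervals, given for single genes, reflect the number of reads alone. Exact binomial 95% intervals, given for shares of genes, treat genes as independent draws and hold no error of read numbers. Neither kind holds variation between libraries. The depth step and the calls were tested on simulated data. Alternatives were another fold, pseudocount, minimum, scaling, transcript choice, gene set and set of scaffolds. Members and the 28 word lists were chosen with earlier results of these data known.

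Named genes are annotated X-named genes, 1 per annotation text. They are the 12 with the largest testis and ovary difference in each direction (at least 20 RPKM in the higher tissue), up to 20 testis-enriched genes, 6 per other tissue, the 6 with the highest mean, and 4 per list, from which the text takes examples. Hypothetical and overlapping genes, scaffold stretches and similar scaffolds were named after their values were seen. Python 3.11.15, pandas 2.3.3, numpy 2.4.6, scipy 1.17.1 and matplotlib 3.10.9 were used.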

Additional observations from a re-analysis of the deposited data

How the results depend on the processing

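No paired analysis was possible because each tissue has 1 library and no replicates. Over the 12 shares and medians, 180 alternative values stayed within the reported value's interval or near that value, 16 moved and 2 reversed. For the 24 testis and ovary genes with the largest differences all 144 alternative calls kept their side. These genes were picked by the size of that same difference. Their calls could therefore hardly change, and this says little about genes with smaller differences. The X-named share of testis-enriched genes (3.65%) ran from 1.91% to 4.55% over all alternatives, against 20.3% of genes with the reported settings. Its lowest value, 19 of 996 genes, came without PgR001X and PgR022X, which was chosen after seeing the data, as were the alternatives with larger scaffolds only, without the embryo library and with the authors' best expressed transcript. Leaving out each X-named scaffold in turn gave 2.59% (without PgR001X) to 3.65%, and 4.28% to 5.39% for genes higher in testis than ovary. Wherever X-named scaffolds alone are left out, as here and for the lowest value, the share of genes on them also falls below 20.3%. The share of genes higher in ovary than testis (28.0%) was 25.0% at 8-fold, 26.1% with a pseudocount of 5, 24.9% with median-of-ratios scaling, 30.6% with 1 gene per annotation text and 25.8% without PgR005X. The embryo-enriched share was 11.2% (13 of 116 genes) at a minimum of 20 RPKM, and the intestine-enriched share 35.7% at 8-fold, where 5 of 14 genes remained on X-named scaffolds.

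The median log2 level of X-named minus other genes in testis (−0.58) was −0.31 with a pseudocount of 5 and −0.84 with values summed over transcripts. For ovary it was 0.25 with a pseudocount of 5 and 0.52 with eliminated genes included. Summed over transcripts it was 0.034 for embryo, and it reversed to −0.023 for intestine and −0.026 for carcass, where X-named genes list fewer transcripts per gene. With eliminated genes included it was 0.29 for embryo, 0.33 for intestine and 0.26 for carcass. The other causes were not tested.

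Counts moved more than shares. The 70 X-named genes higher in testis than ovary were 109 under median-of-ratios scaling, 106 as TPM and 46 with a pseudocount of 5 or a minimum of 20 RPKM. The 651 higher in ovary were 201 under median-of-ratios and 287 under upper-quartile scaling, 215 at 8-fold, 286 with a pseudocount of 5 and 432 at a minimum of 20 RPKM. Enriched counts fell to 19 for ovary and 21 for embryo at 8-fold, and to 28, 14 and 37 for ovary, embryo and intestine with a pseudocount of 5. Scaling by median-of-ratios or by the upper quartile gave 22 and 22 for ovary, 23 and 25 for intestine and 180 and 164 for carcass, with TPM 99 for intestine, and with 1 gene per annotation text 29 for embryo. Depth limits values near 0, with 3 reads worth up to 0.19 RPKM in embryo at the median length.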

Other observations

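The X-named scaffolds also carried 13 genes marked as eliminated, all on PgB scaffolds, of which 7 (53.8%) were testis-enriched, against 404 of 972 eliminated genes on other scaffolds (41.6%). Their median levels were 18.5 RPKM in testis and 1.3 in ovary. The highest was a branched-chain-amino-acid aminotransferase (PgB36X_g004), an enzyme of amino acid metabolism, with 487.3 RPKM in testis, against 0.1 in ovary, and it stood beside a regulator of microtubule dynamics (PgB36X_g003) with 129.6 RPKM in testis and a value listed at 0 in ovary. An RNA-binding protein orb2 (PgB41X_g004), whose Drosophila namesake controls translation in the testis and nervous system, had 79.9 RPKM in testis, against 4.1 in ovary.

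On PgR009X a run of 19 neighbouring genes, PgR009X_g055 to PgR009X_g073 at positions 710354 to 760531, stayed below 1 RPKM in every tissue, and 18 of them were listed at 0 throughout. All 19 were annotated as hypothetical proteins, 13 had a single exon, and their median length was 749 nt. The gene before the run, PgR009X_g054, also hypothetical, had between 251.3 and 837.9 RPKM in the 5 tissues. It was the longest such run in the table, followed by 11 genes that make up the whole of PgR348. Listed below 1 RPKM in all 5 tissues were 231 X-named genes (8.11%) and 698 others (6.24%). The run was noticed after the values were seen, and how its genes came into the annotation was not tested.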
